A study of Capra hircus with 13 samples.

Results

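The 6 Kruppel-like factor (KLF) genes *KLF4*, *KLF5*, *KLF6*, *KLF10*, *KLF11* and *KLF17* were chosen by name and followed from the goat MII oocyte to the 8-cell embryo and after knockdown of *YTHDF2*. They are 6 of the 18138 gene names listed for all 13 libraries, and 6 of the 16 KLF genes listed there. MII oocytes, which are mature oocytes arrested before fertilization, and 4- and 8-cell embryos without treatment had 3 libraries each. The injected embryos received a universal negative control (NC) siRNA, with titles that call these libraries WT, or 20 µM *YTHDF2* siRNA as zygotes at 8 h after *in vitro* fertilization (IVF), were taken at the 8-cell stage at 72 h post-IVF, and had 2 libraries each of 15 pooled embryos. The oocytes came from goat ovaries and were matured *in vitro*. The untreated libraries stem from 2 earlier studies of the same authors, and which study made which library is not given in the sources used here, so stage and study cannot be told apart. YTHDF2 is a protein that binds mRNAs carrying N6-methyladenosine and promotes their decay.

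KLF proteins are transcription factors with zinc fingers at the C-terminal end that bind GC-rich and CACCC sequences in promoters and enhancers, and the regions before the zinc fingers decide whether a member activates or represses. KLF4 and KLF5 maintain the pluripotent state in mouse embryonic stem cells, and KLF5 is also needed for the trophectoderm of the mouse blastocyst. KLF17 is known from germ cells and, in human, from preimplantation embryos and naive pluripotent cells. KLF10 and KLF11 are induced by transforming growth factor beta (TGF-beta) and repress through the SIN3A corepressor, and KLF6 is a widely expressed activator.

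All values are FPKM (fragments scaled by exon length and by the number of mapped fragments), which are per length, so that levels of different genes can be compared. Fragments recovered from the untreated values summed to between 17818378 and 22192041 per library on the genes shared by the tables, and the depth of the injected libraries is unknown. The library 8-cell 1 stood apart from the other 8-cell libraries (correlations within that group from 0.921 to 0.979). The targeted gene *YTHDF2* was at 111.5 and 158.6 FPKM in the NC siRNA libraries and at 8.07 and 4.47 FPKM in the *YTHDF2* siRNA libraries. Of 10 oocyte markers 9 were listed, none of them at 0, and their summed FPKM was 1533 to 2490 in MII, 2122 to 3449 in 4-cell, 2503 to 3047 in 8-cell, 480 to 753 in NC siRNA and 974 to 1897 in *YTHDF2* siRNA libraries. Cumulus and granulosa markers (10 or 11 of 12 listed, 1 to 3 of them at 0) summed to 58.0 to 75.7 FPKM in MII, 69.9 to 76.4 in 4-cell, 99.3 to 151 in 8-cell, 45.5 to 54.8 in NC siRNA and 84.4 to 94.0 FPKM in *YTHDF2* siRNA libraries, with *STAR* the highest in all of them. Sperm markers (3 or 4 of 5 listed) summed to at most 1.06 FPKM in the untreated and to 5.13 to 27.0 FPKM in the injected libraries. *TNP2* was the highest of them in each injected library. Leukocyte markers summed to at most 4.79 FPKM in all libraries. Fewer cells of a type and less RNA per cell cannot be told apart in such pools.

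*KLF17* had the widest range of the 6 genes. It was at 0 FPKM in the 3 MII libraries, at 0.0218, 0.723 and 0.109 FPKM in the 4-cell libraries, and at 5.52, 8.89 and 1.96 FPKM in the 8-cell libraries. In fragments, these were 0 in each MII library, 1, 31 and 5 in 4-cell embryos, and 239, 390 and 95 in 8-cell embryos. The 8-cell values lay above all others, and 1 of the 4-cell libraries, 4-cell 2, lay far above the other two. In the NC siRNA libraries *KLF17* was at 291.7 and 394.8 FPKM, and in the *YTHDF2* siRNA libraries at 239.2 and 267.2 FPKM. It thus stood among the 1.69% of genes with the highest FPKM in both NC siRNA libraries, while in the untreated 8-cell libraries 22.4 to 39.6% of the genes lay at or above it.

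*KLF4*, whose product joins POU5F1 and SOX2 in pluripotent cells, was at 0.828, 0.626 and 1.07 FPKM in MII oocytes, at 0.596, 2.14 and 0.551 FPKM in 4-cell embryos and at 5.86, 8.05 and 4.76 FPKM in 8-cell embryos. The MII and 4-cell values overlapped, the 8-cell values lay above both, and 4-cell 2 was again the highest of its group. The injected libraries held 86.95 and 124.3 FPKM with NC siRNA, and 71.06 and 61.75 FPKM with *YTHDF2* siRNA. *KLF5* was at 0.828, 0.840 and 0.674 FPKM in MII oocytes, at 1.01, 1.82 and 1.66 FPKM in 4-cell embryos and at 3.53, 4.16 and 2.93 FPKM in 8-cell embryos, so that the 3 stages followed each other without overlap. It was at 37.81 and 33.59 FPKM with NC siRNA and at 12.56 and 11.57 FPKM with *YTHDF2* siRNA.

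*KLF10*, a repressor induced by TGF-beta, was close to absent from the oocyte, with 0.0182, 0.0708 and 0.353 FPKM from 2, 8 and 48 fragments. It was at 1.14, 1.40 and 1.73 FPKM in 4-cell embryos and at 12.9, 9.37 and 7.68 FPKM in 8-cell embryos, again without overlap between stages. The NC siRNA libraries held 78.08 and 96.89 FPKM and the *YTHDF2* siRNA libraries 60.13 and 75.65 FPKM of *KLF10*.

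*KLF11*, the close relative of *KLF10*, was instead abundant from the start. It was at 25.1, 26.4 and 27.3 FPKM in MII oocytes, at 33.8, 40.8 and 19.6 FPKM in 4-cell embryos, and at 61.6, 25.3 and 42.4 FPKM in 8-cell embryos. The 3 stages overlapped, and the spread grew from an SD of 1.14 FPKM in MII to 18.1 FPKM in 8-cell libraries. With NC siRNA it was at 32.21 and 24.91 FPKM, and with *YTHDF2* siRNA at 52.15 and 54.39 FPKM. *KLF6* was at 2.72, 3.92 and 4.68 FPKM in MII oocytes, at 5.10, 6.10 and 7.17 FPKM in 4-cell embryos and at 7.01, 5.01 and 1.80 FPKM in 8-cell embryos, where the libraries disagreed most. It was the lowest of the 6 genes in the injected libraries, at 0.99 and 0.94 FPKM with NC siRNA and 1.54 and 2.04 FPKM with *YTHDF2* siRNA.

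**Figure D1:**
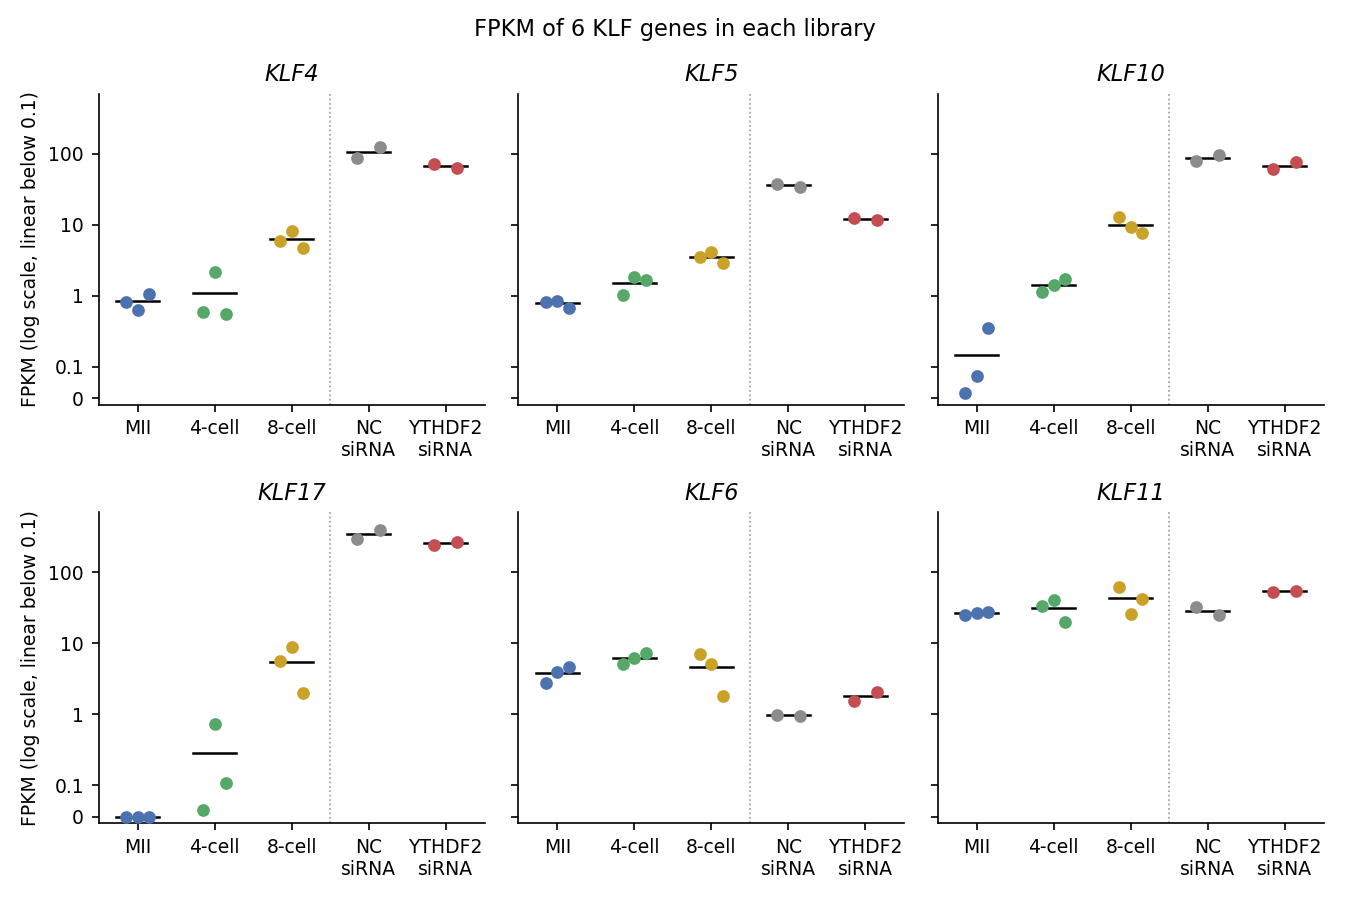
FPKM (y axis, logarithmic and linear below 0.1) of the 6 KLF genes in each library (points) by group (x axis), with group means as bars and a dotted line between the untreated and the injected libraries, which were normalized apart. *KLF4*, *KLF5*, *KLF10* and *KLF17* are higher in all 8-cell than in all MII libraries and higher again in the injected embryos, while *KLF11* stays between 19.6 and 61.6 FPKM throughout.

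*KLF11* had the highest level of the 6 genes at all 3 untreated stages, and *KLF17* in the injected libraries, which were normalized apart. In MII oocytes *KLF11* (26.3 ± 1.14 FPKM, SD, n = 3) was followed by *KLF6* (3.77 ± 0.986), then by *KLF4* (0.842 ± 0.222) and *KLF5* (0.781 ± 0.0924), whose ranges overlapped, by *KLF10* (0.147 ± 0.180) and by *KLF17* at 0. At the 4-cell stage *KLF11* (31.4 ± 10.8 FPKM) and *KLF6* (6.12 ± 1.04) still led without overlap, and *KLF5* (1.497 ± 0.431), *KLF10* (1.42 ± 0.296), *KLF4* (1.09 ± 0.902) and *KLF17* (0.285 ± 0.382) overlapped each with the next. In 8-cell embryos *KLF11* (43.1 ± 18.1 FPKM) was the highest and apart from the rest, and *KLF10* (9.99 ± 2.67), *KLF4* (6.23 ± 1.68), *KLF17* (5.45 ± 3.46), *KLF6* (4.61 ± 2.63) and *KLF5* (3.54 ± 0.614) overlapped each with its neighbour. In the NC siRNA embryos *KLF17* (343 ± 72.9 FPKM, SD, n = 2) led, followed by *KLF4* (106 ± 26.4) and *KLF10* (87.5 ± 13.3), which overlapped, and then by *KLF5* (35.7 ± 2.98), *KLF11* (28.6 ± 5.16) and *KLF6* (0.965 ± 0.0354), each apart from the next. With *YTHDF2* siRNA, *KLF11* (53.3 ± 1.58 FPKM) stood above *KLF5* (12.1 ± 0.700), and the other places differed only in that *KLF10* (67.9 ± 11.0) and *KLF4* (66.4 ± 6.58), which overlapped, were exchanged.

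Within the FPKM summed over the 16 KLF genes, *KLF11* made up 54.7 to 57.2% in MII, 41.1 to 56.6% in 4-cell and 28.6 to 47.8% in 8-cell libraries, against 3.36 to 5.26% with NC siRNA and 10.1% in both libraries with *YTHDF2* siRNA. *KLF17* made up 0% in MII and 2.09 to 10.0% in 8-cell libraries, against 47.6 to 53.2% with NC siRNA and 46.5 to 49.8% with *YTHDF2* siRNA. The sum itself was 45.9 to 47.8 FPKM in MII, 47.7 to 81.8 in 4-cell, 88.7 to 129 in 8-cell, 613 to 742 in NC siRNA and 515 to 537 FPKM in *YTHDF2* siRNA libraries. The 6 genes held 64.2 to 74.8% of it in the untreated and 84.8 to 91.0% in the injected libraries, and most of the rest came from *KLF3*, *KLF7* and *KLF12*.

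**Figure D2:**
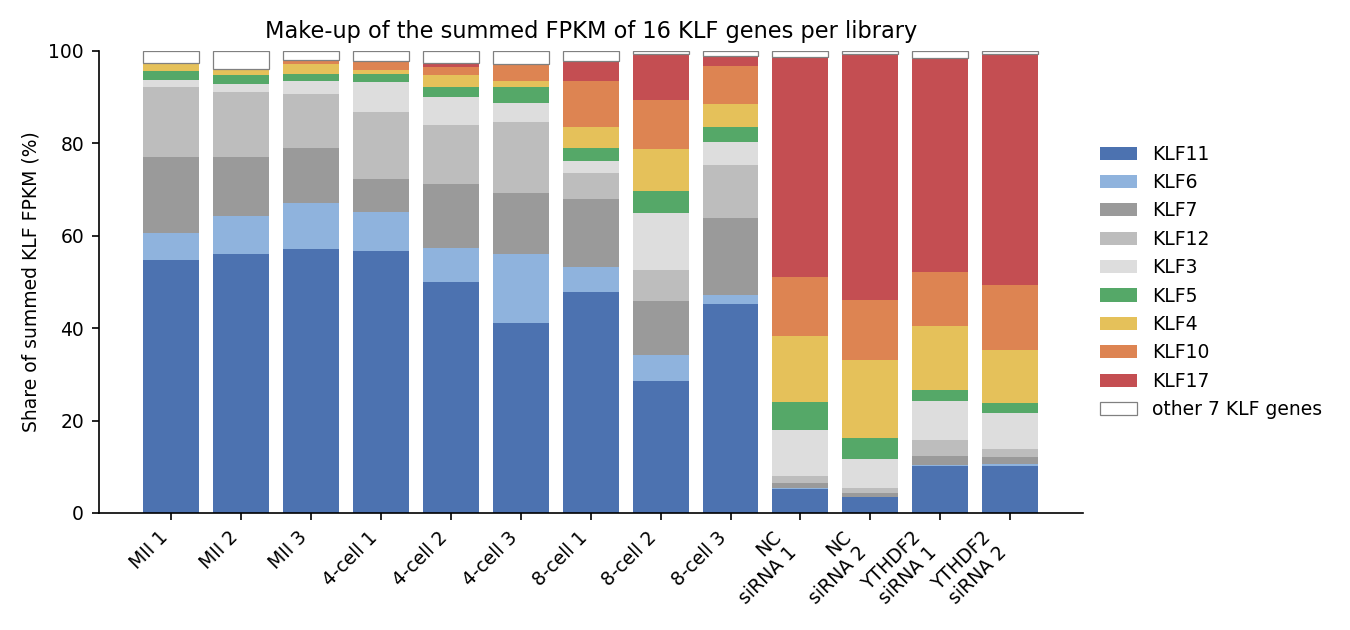
Share (y axis, percent) of each KLF gene in the FPKM summed over 16 KLF genes, 1 bar per library (x axis). The same 7 genes (*KLF1*, *KLF2*, *KLF8*, *KLF9*, *KLF13*, *KLF15* and *KLF16*) are drawn together in white in each bar. *KLF11* (dark blue) holds 54.7 to 57.2% of the sum in MII libraries and *KLF17* (red) 46.5 to 53.2% in the injected libraries.

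To ask which of these differences were larger than the spread between libraries, the 9 untreated libraries were fitted together with limma on log2(FPKM + 1). A gene was called where it changed more than 2-fold with an unadjusted p under 0.05, and Benjamini-Hochberg (BH) adjusted p from limma over 9090 genes are given for the KLF genes, and for other genes at least where they exceed 0.05. Such log2 fold changes understate the change of genes near 0. The comparisons share libraries, so their results are not independent. The median log2 fold change over all genes, against MII, was 0.29 in 4-cell and 0.37 in 8-cell embryos, and it was 0.072 between these stages. With libraries brought to the same sum over the shared genes, the 3 medians were -0.14, 0.020 and 0.16. The shares of higher genes among all calls then went from 73.4, 70.9 and 51.6% to 34.3, 46.4 and 64.0%, so shares of genes called depend on the scaling. *KLF4*, *KLF10* and *KLF17* reached the mean of 1 FPKM needed for the fit only through their 8-cell values (means of 0.968, 0.784 and 0.142 FPKM over the MII and 4-cell libraries), so their presence among the genes tested is itself tied to a rise. With no filter on low values, each of their 8-cell calls was kept.

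At the 4-cell stage against MII, *KLF10* was called higher (log2 fold change 1.08, SE 0.26, adjusted p = 0.011), where 16.7% of all genes were called higher and 6.06% lower. On the FPKM scale its mean was 9.66-fold higher, a value that rests on MII 3, without which it was 31.9-fold. The log2 fold change was 0.99 without 4-cell 3, which ended the call on the size of the change, and 0.96 or 0.92 with quantile normalization or the same sum over the shared genes. None of the other 5 genes was called. *KLF5* had a log2 fold change of 0.47 (95% interval -0.051 to 0.998, adjusted p = 0.16) and *KLF6* of 0.59 (-0.25 to 1.43, adjusted p = 0.27). Over 17 alternatives each, the values lay between 0.20 and 0.90 for *KLF5* and between 0.15 and 0.73 for *KLF6*. *KLF17* and *KLF4* had 0.32 (-0.61 to 1.26) and 0.11 (-0.61 to 0.84), and *KLF11* 0.19 (-0.57 to 0.95). The signs for *KLF4* and *KLF11* turned with the scaling of the libraries, to -0.13 and -0.33 with the same sum over the shared genes, and without 4-cell 2, to -0.22 and -0.026.

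At the 8-cell stage against MII, 4 of the 6 genes were called higher and none lower, beside 19.8% and 8.14% of all genes. *KLF10* had the highest value (log2 fold change 3.24, SE 0.26, adjusted p = 4.3e-05), followed by *KLF17* (2.53, SE 0.42, adjusted p = 0.0015), *KLF4* (1.95, SE 0.32, adjusted p = 0.0015) and *KLF5* (1.34, SE 0.23, adjusted p = 0.0020). *KLF10*, *KLF17* and *KLF4* passed the filter only through their 8-cell level, so the count of 4 is not support for a rise of the 6 genes. On the FPKM scale, the mean of *KLF17* was at least 107-fold higher, taken against the FPKM of 3 fragments in each MII library, which stands for a count of 0. *KLF4* was 7.40-fold and *KLF5* 4.53-fold higher, and *KLF10* 67.8-fold, or 224-fold without MII 3. *KLF11* (0.61, 95% interval -0.15 to 1.37, adjusted p = 0.19) and *KLF6* (0.13, -0.71 to 0.97, adjusted p = 0.82) were not called. Without 8-cell 1, the library that stood apart, *KLF10* (3.06), *KLF17* (2.44), *KLF4* (1.98) and *KLF5* (1.34) were still called, and *KLF11* had 0.31. Cumulus and granulosa markers moved with this comparison, with 3 of 6 tested called higher and a median log2 fold change of 1.17 (1 of the 3 calls, *CYP19A1*, ended without 1 or another library), and their part in the KLF values was not tested. For *KLF6* the sign turned with each rescaling (-0.22 to -0.18) and without MII 1 (-0.043) or 8-cell 1 (-0.20).

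Between the 4- and the 8-cell stage, 3 of the 6 genes were called higher and none lower, where 4.55% of all genes were called higher and 4.28% lower. These were *KLF17* (log2 fold change 2.20, SE 0.42, adjusted p = 0.016), *KLF10* (2.16, SE 0.26, adjusted p = 0.0034) and *KLF4* (1.84, SE 0.32, adjusted p = 0.012). All 3 passed the filter only through their 8-cell level, so this count is not support for a rise of the 6 genes. On the FPKM scale the means were 19.2-fold, 7.02-fold and 5.69-fold higher. The values of *KLF17* and *KLF4* rest on 4-cell 2, without which they were 83.3-fold and 10.9-fold. Without 8-cell 1 the log2 fold changes of the 3 genes were 2.11, 1.98 and 1.87, all called. *KLF5* stayed under the 2-fold limit with 0.87 (95% interval 0.34 to 1.39, adjusted p = 0.052), and passed it with a pseudocount of 0.1 (1.21). On the FPKM scale its mean was 2.36-fold higher without overlap (2.03-fold to 2.65-fold with any 1 library left out). *KLF11* (0.42, -0.34 to 1.18, adjusted p = 0.47) and *KLF6* (-0.46, -1.30 to 0.38, adjusted p = 0.47) were not called, and had 0.12 and -0.79 without 8-cell 1. The summed cumulus and granulosa markers did not overlap between these stages, and 1 of 6 tested, *GREM1*, was called higher (1.12, limma, adjusted p = 0.15, but not without 4-cell 1, 4-cell 3 or 8-cell 1, at 1.08, 0.90 and 0.65), with a median log2 fold change of 0.52. Their part in the KLF values was not tested.

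**Figure D3:**
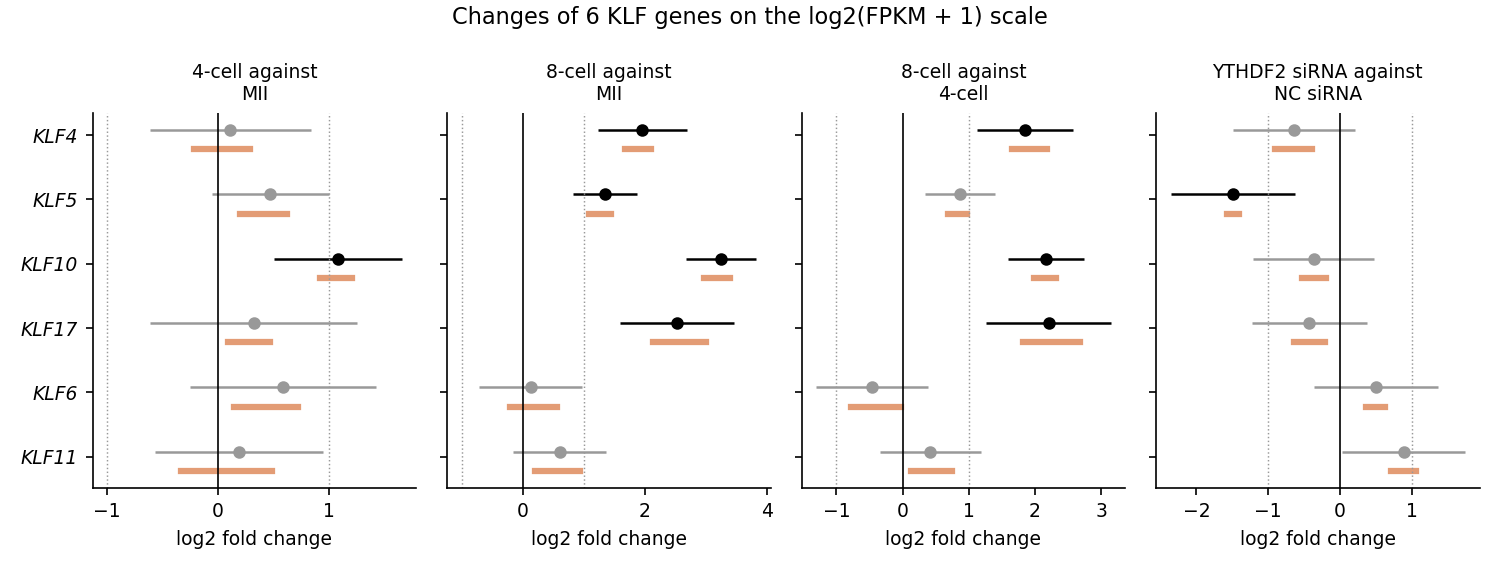
Log2 fold change (x axis, on the log2(FPKM + 1) scale) of the 6 KLF genes (y axis) in 4 comparisons, with 95% intervals of limma (black for genes called, grey for the others) and, below each in orange, the range over the alternative settings that keep this scale. *KLF10* is called in the 3 stage comparisons (1.08, 3.24 and 2.16), and *KLF5* alone after *YTHDF2* siRNA (-1.49), with dotted lines at a 2-fold change.

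After *YTHDF2* siRNA, 1 of the 6 genes was called lower and none higher, where 15.3% of the 11004 genes fitted in the 4 injected libraries were called lower and 9.48% higher. *KLF5* fell from a mean of 35.7 ± 2.98 to 12.1 ± 0.700 FPKM (SD, n = 2), 2.96-fold lower (log2 fold change -1.49, SE 0.41, limma, adjusted p = 0.040). Its adjusted p lay between 0.0061 and 0.17 over 11 alternatives and the size of its change between -1.57 and -1.41. *KLF11* was 1.87-fold higher in the mean and missed the 2-fold limit (log2 fold change 0.89, 95% interval 0.030 to 1.74, adjusted p = 0.16). It passed that limit without NC siRNA 1 (1.07), where it was not called. The other values were -0.64 for *KLF4* (-1.49 to 0.21, adjusted p = 0.29), -0.42 for *KLF17* (-1.22 to 0.37, adjusted p = 0.46), -0.36 for *KLF10* (-1.20 to 0.48, adjusted p = 0.56) and 0.50 for *KLF6* (-0.36 to 1.36, adjusted p = 0.42). The intervals of these 4 genes leave room for changes of more than 2-fold. *KLF6* passed the filter only through its *YTHDF2* siRNA level (1.79 against 0.965 FPKM in the means). Oocyte markers differed between the same libraries, with 6 of 8 tested called higher after *YTHDF2* siRNA and a median log2 fold change of 1.17, against 0.0054 over all genes, though 5 of these 6 calls ended without 1 or another library. The call that did not, *FIGLA*, and that of *ZAR1* passed the filter only through the *YTHDF2* siRNA level (NC siRNA means of 0.520 and 0.755 FPKM), and *ZP4* was not called without the filter. In limma the adjusted p was 0.047 for *MOS*, 0.060 for *ZP2*, 0.072 for *ZP3*, 0.087 for *FIGLA*, 0.096 for *ZAR1* and 0.15 for *ZP4*. Of the cumulus and granulosa markers, 2 of 5 tested were called higher, with a median of 0.71, and both calls ended without 1 or another library. The part of both marker lists in the KLF values was not tested.

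Untreated and NC siRNA embryos are both labelled 8-cell, yet the KLF genes stood at very different levels in them. On the FPKM scale the NC siRNA mean was 62.9-fold above the untreated mean for *KLF17* (47.7-fold to 91.8-fold with any 1 library left out), 17.0-fold for *KLF4*, 10.1-fold for *KLF5* and 8.76-fold for *KLF10*. *KLF6* was 4.78-fold lower, without overlap, and *KLF11* overlapped. On the log2(FPKM + 1) scale the difference was 5.74 for *KLF17*, a value reached or passed by 1.51% of 10483 genes, 3.88 for *KLF4* (5.21%), 3.02 for *KLF5* (9.16%) and 3.01 for *KLF10* (9.18%), against a median of -0.099 over all genes. *KLF3* (2.92) and *SP5* (4.38), of the related SP family, and *YTHDF2* itself (3.25) were higher as well, and *KLF7* lower (-1.16). These genes other than *YTHDF2* were named after their values were seen. Injection, experiment, normalization and time of collection cannot be told apart here, so no test was made. The oocyte markers summed to 480 to 753 FPKM in the NC siRNA against 2503 to 3047 FPKM in the untreated 8-cell libraries. The cumulus and granulosa markers were also lower with NC siRNA (45.5 to 54.8 against 99.3 to 151 FPKM) and the sperm markers higher (12.7 to 21.6 against 0.394 to 0.746 FPKM), both without overlap. Of the sperm sums, *TNP2* alone held 11.06 FPKM in NC siRNA 1 and 11.86 FPKM in NC siRNA 2. The part of the 3 marker lists in these differences was not tested.

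**Figure D4:**
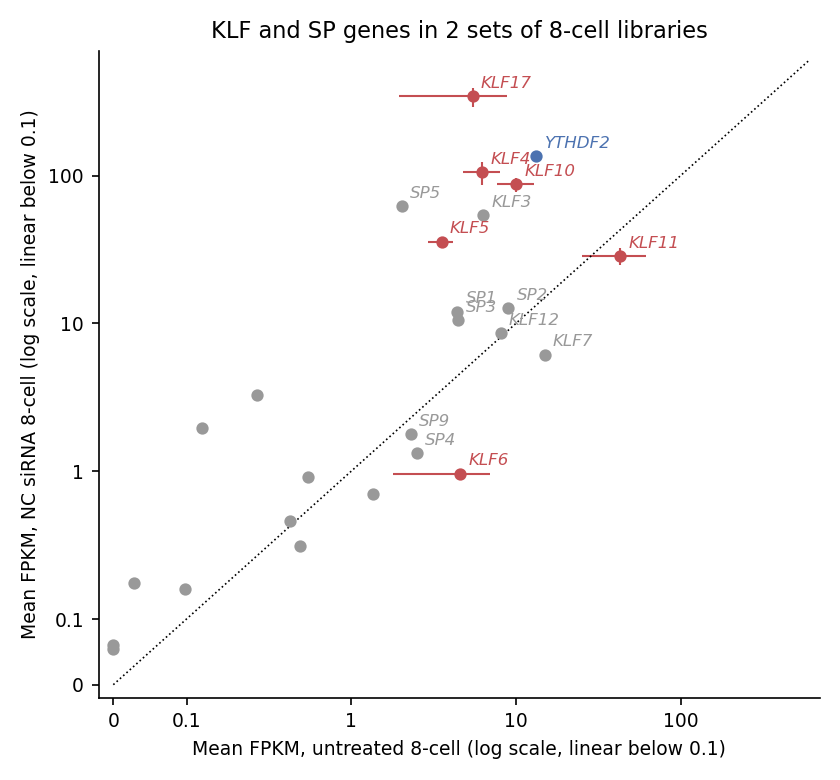
Mean FPKM of KLF and SP genes and of *YTHDF2* in untreated 8-cell embryos (x axis) and NC siRNA 8-cell embryos (y axis), both logarithmic and linear below 0.1, with the 6 KLF genes in red, their lowest and highest libraries as bars, and equality as a dotted line. *KLF17*, *KLF4*, *KLF5* and *KLF10* lie 8.76-fold to 62.9-fold above the line, *KLF6* lies 4.78-fold below it, and the bar of *KLF11* crosses it.

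Across the 9 untreated libraries *KLF4*, *KLF5*, *KLF10* and *KLF17* varied together, with Pearson r of log2(FPKM + 1) from 0.901 (*KLF4* and *KLF10*) to 0.967 (*KLF4* and *KLF17*). *KLF11* had r of 0.455 to 0.562 with these 4 genes, and *KLF6* of -0.047 to 0.128 with the other 5. These are descriptions over libraries that share 3 stages. Among the 3654 genes (3653 for *KLF11*) that averaged 10 FPKM or more, the pattern of *KLF10* was most like that of *AZIN1* (r = 0.980), which encodes an inhibitor of antizyme. *AZIN1* also lies next to *KLF10* in the RefSeq table of assembly ARS1.2, and *ODF1*, the neighbour on the other side, was at most at 0.844 FPKM in any library. *AZIN1* was at 44.1, 64.0 and 110.9 FPKM in the means of MII, 4-cell and 8-cell libraries, and at 98.0 FPKM with NC siRNA and 49.3 FPKM with *YTHDF2* siRNA. *CEP85L* (r = 0.971) and the nuclear receptor coactivator gene *PNRC1* (0.969) followed. *PNRC1* was also the gene most like *KLF5* (r = 0.993), before *ZIM3* (0.986) and *TMEM37* (0.978). *CEP85L*, *PNRC1*, *ZIM3*, *TMEM37* and, below, *PDP2* reached the mean of 10 FPKM only through their 8-cell libraries, so their selection is itself tied to a rise. For *PNRC1* the means rose with those of *KLF5*, from 0.920 FPKM in MII to 4.93 and 25.6 FPKM, and were 630 FPKM with NC siRNA and 408 FPKM with *YTHDF2* siRNA. *KLF17* was most like *PDP2* (r = 0.985), *FAM177A1* (0.958) and *HNRNPDL* (0.957), and *KLF4* most like *BIRC2* (0.963), *CCDC84* (0.963) and *MXI1* (0.962), which encodes an antagonist of MYC. *KLF11* was most like *B3GALNT2* (0.943), the RNA demethylase gene *ALKBH5* (0.937) and *NFATC3* (0.935). *KLF6* reached at most 0.840, with *NUDT6*, and 0.832 and 0.831 with *ZPR1* and *TM2D2*.

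Genes related to the KLF genes are described by counts, to be read against the shares of all genes called in the same comparisons (16.7% higher and 6.06% lower for 4-cell against MII, 19.8% and 8.14% for 8-cell against MII, 4.55% and 4.28% between the 2 embryo stages, 9.48% and 15.3% after *YTHDF2* siRNA). Calls named as stable were kept with each library left out in turn. After *YTHDF2* siRNA no call of these genes was stable in this sense. The calls of the lists were not checked with rescaled libraries, which changed the shares of all genes called higher against MII.

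Of the 12 other KLF genes 10 were listed for all untreated libraries, and of these only *KLF3*, *KLF7* and *KLF12* were high enough to be tested at the stages. *KLF3*, a repressor that works through CTBP proteins, was called higher in 8-cell embryos against MII (log2 fold change 1.74, limma, adjusted p = 0.0088), a stable call. Its call in 4-cell embryos (1.15, adjusted p = 0.058) and that of *KLF7* in 8-cell embryos (1.08, adjusted p = 0.030) were not stable, and *KLF7* had 0.90 without 8-cell 1. *KLF12*, which neighbours *KLF5* in the RefSeq table, was not called in any comparison (0.40, 0.27, -0.13 and 0.58), and none of 5 tested was called after *YTHDF2* siRNA. Of the SP genes, which encode relatives with similar zinc fingers, 5 of 9 were tested at the stages. Against MII, *SP1* was called higher in 4-cell (1.53) and 8-cell embryos (1.87), *SP4* higher in 8-cell (1.34) and *SP2* lower in 4-cell embryos (-2.13), all stable, and *SP3* higher in 4-cell embryos (1.03), which was not. *SP4* passed the filter only through its 8-cell level. None was called between the 4- and 8-cell stages or after *YTHDF2* siRNA.

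The corepressors and coactivators used by KLF proteins had medians near 0 at the stages (-0.061, -0.12 and 0.057 over 14 tested genes). *SIN3A*, the corepressor that KLF10 and KLF11 bind, was called lower in 4-cell (-1.13, limma, adjusted p = 0.0074) and 8-cell embryos (-1.12, adjusted p = 0.0064), from 101.5 FPKM in MII to 46.7 and 47.4 FPKM. These calls missed the 2-fold limit without 4-cell 3 (-0.98) and without 8-cell 2 (-0.88). *HDAC2*, a histone deacetylase of the SIN3 complex, was called higher at both stages (1.09 and 1.34, limma, adjusted p = 0.0015 and 0.00039), the first at 0.99 without 4-cell 1 and the second stable. *KAT2B* was called higher in 4-cell embryos (1.56), *SAP30* lower in 8-cell embryos (-1.23), both against MII, and *RBBP4* lower between the 4- and 8-cell stages (-1.23), all stable. After *YTHDF2* siRNA *HDAC1* (-1.28, limma, adjusted p = 0.081) and *HDAC2* (-1.34, adjusted p = 0.054) were called lower and *KAT2A* higher (1.04, adjusted p = 0.13), and the first 2 were at -0.97 and -0.93 without *YTHDF2* siRNA 2.

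Of 10 tested TGF-beta and SMAD genes, 2 were called higher in 4-cell and 4 in 8-cell embryos against MII, none lower, with medians of 0.35 and 0.89 beside 0.29 and 0.37 over all genes. The calls of the signal transducer *SMAD2* (1.18 and 1.31) were stable. Those of the receptor *TGFBR1* (1.04 and 1.06) and of the corepressors *SKI* (1.33) and *TGIF1* (1.07, limma, adjusted p = 0.059) in 8-cell embryos were not, and *TGIF1* passed the filter only through its 8-cell level. After *YTHDF2* siRNA the ligand *TGFB2* (1.12) and the ubiquitin ligases *SMURF1* (1.07) and *SMURF2* (1.14) were called higher and *SKIL* lower (-1.09), all with adjusted p above 0.05 in limma (0.090 to 0.15). *SKIL* passed the filter only through its NC siRNA level, and *TGFB2* and *SMURF1* were not called without the filter. Of 8 tested genes for ubiquitin ligases and deubiquitinases of KLF proteins, 2 were called higher in 4-cell and 3 in 8-cell embryos against MII. The calls of *VHL* in 4-cell embryos (1.13) and of *SIAH1* (1.48) and *ATXN3* (1.29) in 8-cell embryos were stable. *WWP1*, a ligase for KLF5, was called in 4-cell embryos (1.12, and 0.82 without 4-cell 1), and *USP10* in 8-cell embryos (1.07, limma, adjusted p = 0.10, and 0.55 without 8-cell 1), where leaving out any of 6 libraries, or the filter, ended the call. After *YTHDF2* siRNA *FBXW7* (1.04, limma, adjusted p = 0.11), another ligase for KLF5, and *SMURF1* were called higher.

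Immediate early genes, among which *KLF4*, *KLF6* and *KLF10* are often counted in other cells, included calls in both directions. Of 13 tested, 3 were called higher and 4 lower in 4-cell embryos, and 5 higher and 3 lower in 8-cell embryos, against MII. The antiproliferative gene *BTG2* (2.26 and 1.51) and *IER5* (1.40 and 3.91) were called higher at both stages and *ATF3* (2.65), *IER2* (1.57) and *MYC* (3.02) in 8-cell embryos, all stable, while *MYC* in 4-cell embryos (1.31, limma, adjusted p = 0.073) was not. *IER3* and *JUND* were called lower at both stages (-1.61 and -1.60 in 4-cell embryos), all stable, though *JUND* passed the filter only through its MII level. *ZFP36* was called lower at both (-1.22 and -1.02), the second not stable. *EGR1* in 4-cell embryos (-1.25, limma, adjusted p = 0.12) was called lower, but not without the filter or any of 6 libraries. Between the 4- and 8-cell stages *IER5* (2.51), *ATF3* (2.00), *MYC* (1.71, adjusted p = 0.065) and *IER2* (1.29, adjusted p = 0.15) were called higher and none lower. *IER5*, *ATF3* and *IER2* passed the filter only through their 8-cell level (means of 0.860, 0.573 and 0.150 FPKM over the other libraries), so neither the count of 4 here nor that of 5 against MII is support for a rise of the list. Without the filter all 4 were still called, and *IER2* lost its call when any of the 3 libraries of 4-cell embryos was left out. After *YTHDF2* siRNA *FOS* was called lower (-1.11, limma, adjusted p = 0.13, and -0.45 without NC siRNA 2) and *NR4A1* higher (1.15, adjusted p = 0.13, and 0.57 without NC siRNA 2) of 15 tested, and neither was called without the filter.

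Of the naive pluripotency partners of KLF4 and KLF5, 4 of 10 were tested at the stages, and these were called higher in 8-cell than in 4-cell embryos. They are named after their values were seen. *NANOG* (2.26, limma, adjusted p = 0.041) and *PRDM14* (1.42, adjusted p = 0.019) passed the filter only through their 8-cell level (means of 0.505 and 0.397 FPKM over the other libraries), and were called without the filter (adjusted p = 0.090 and 0.032) and with each library left out. *POU5F1* (1.44, adjusted p = 0.15) and *SALL4* (1.01, adjusted p = 0.18) rest on 8-cell 1, without which they were at 0.64 and 0.53 and not called, and leaving out any of 3 and 4 other libraries also ended these calls. *NANOG* was at 0 in all MII libraries, like *KLF17*. *SALL4* was lower in 4-cell embryos than in MII (-1.45), and *NANOG* (3.11) and *PRDM14* (2.24) were higher in 8-cell embryos than in MII. After *YTHDF2* siRNA *ESRRB* alone of 7 tested was called, as lower (-1.12, limma, adjusted p = 0.087), having passed the filter only through its NC siRNA level, and the median of the 7 was -0.66.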

How the data were processed

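The 5 tables deposited by the authors hold FPKM per gene and library, as RNA-seq of Smart-seq2 cDNA. Per the study's methods, the authors used HISAT2 and the assembly ARS1, dropped reads that mapped to more than 1 place, and turned HTSeq counts into FPKM for each library. Smart-seq2 cDNA does not mark the strand, so reads of overlapping genes cannot be told apart. All value columns were used. FPKM of the untreated libraries step by whole fragments, and 17842 of 17918 genes above 0 gave whole fragments within a tolerance of 0.1. The injected tables, rounded to 2 decimals, gave none.

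After genes averaging below 1 FPKM were dropped, limma 3.58.1 (R 4.3.3) was run on log2(FPKM + 1) with lmFit and a trended eBayes, the 9 untreated libraries in 1 fit and the 4 injected libraries in another. Calls need an unadjusted p under 0.05 and more than a 2-fold change, as in the study, and adjusted p are Benjamini-Hochberg values over all genes of the fit. The scripts were tested on simulated data. The labels do not say that replicates are separate collections, so p-values measure the spread between these libraries only. The tables of the 2 experiments were normalized apart, and levels across them are described without a test. A value of 0 was read as fewer than 3 fragments, which covers counting error only.

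The 6 genes and all lists were chosen with earlier results of these data known. Of the lists, called genes averaging 10 FPKM or more are named, at most 5 per list and comparison, and others where counts are small, after their values were seen. Per KLF gene, the 3 genes of highest r with such a level are named. Alternatives were a pseudocount of 0.1, no filter, median-ratio rescaling, quantile normalization, the same sum over shared genes, a replicate block, each library left out, and the 2 groups alone. Voom on the recovered fragments and crossed replicate numbers were chosen after seeing the data. Gene names were matched to RefSeq symbols of ARS1.2, another release, so no coordinates are given and only the order of neighbouring genes was used. Checks of the called genes of the lists without the filter and without each library were added after seeing the data. Python 3.11.15, pandas 2.3.3, numpy 2.4.6 and matplotlib 3.10.9 did the rest.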

Additional observations from a re-analysis of the deposited data

How the results depend on the processing

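The number of the 6 KLF genes called stayed at 4 for the 8-cell stage against MII and at 1 after *YTHDF2* siRNA under all alternatives run, and at 3 between the 4- and 8-cell stages except for 4 with a pseudocount of 0.1 and with voom. For the 4-cell stage against MII it was 1, and 0 with quantile normalization, the same sum over the shared genes or the 2 groups alone, and 2 with voom on the recovered fragments (chosen after seeing the data). It was 0 to 1 with each library left out. The 2 groups alone left *KLF4*, *KLF10* and *KLF17* below the filter. Of 369 values of single genes under alternatives, 351 kept direction and call. *KLF10* at the 4-cell stage lost its call on size with 0.96 (quantile), 0.92 (same sum) and 0.99 (without 4-cell 3), *KLF17* there gained it with voom (4.06), and *KLF5* between the 4- and 8-cell stages gained it with a pseudocount of 0.1 (1.21) and with voom (1.27). Signs turned for *KLF4* at the 4-cell stage (-0.060 with median-ratio rescaling, -0.13 with the same sum, -0.22 to 0.29 with a library left out), for *KLF11* there (-0.10 with median-ratio rescaling, -0.19 with quantile normalization, -0.33 with the same sum, -0.026 to 0.48 with a library left out), and for *KLF6* at the 8-cell stage against MII (-0.18, -0.22 and -0.21 with these 3 settings, -0.20 to 0.56 with a library left out). The cause was not tested. The adjusted p of limma passed 0.05 for *KLF4* (0.054) and *KLF17* (0.067) between the 4- and 8-cell stages without 4-cell 1 or 4-cell 3. For *KLF5* after *YTHDF2* siRNA it was 0.17 without the filter and 0.030 to 0.13 with a library left out, where the group of 1 library is assumed to vary like the other group. Shares of higher genes among all calls were 73.4, 70.9, 51.6 and 38.2% in the 4 comparisons, against 34.3, 46.4, 64.0 and 41.5% with the same sum, 50.7, 49.1, 45.3 and 38.1% with median-ratio rescaling, and 48.3, 47.3, 45.1 and 46.9% with quantile normalization.

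Deviations of replicates with the same number correlated by -0.51 to 0.20 among untreated and by -0.15 among injected libraries. Deviations within a group sum to 0, and with 2 libraries per group crossed numbers give the same value with the other sign (0.15). This check therefore cannot show whether replicates with the same number share a batch or collection. With the replicate block, the KLF genes called stayed at 1, 4, 3 and 1, and all genes with an adjusted p under 0.05 went from 2833, 3398, 754 and 878 to 2337, 2944, 311 and 461. With crossed numbers in the injected libraries, 1063 genes were called higher and 1747 lower. Depth limits *KLF17* and *KLF10* in oocytes, which rest on 0 to 48 fragments, and the depth of the injected libraries is unknown.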
